A study of Mus musculus with 45 samples.

Results

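The MMTV-Wnt1 tumors were mammary gland tumors of mice that carry a Wnt1 transgene under the mouse mammary tumor virus promoter. They made up 5 of 45 tumors compared by array comparative genomic hybridization (CGH), and were set against the 40 tumors of the other 7 models. The members were chosen by the model named in their labels, not by any measured value. The question was which parts of the autosomes differed in DNA copy number between MMTV-Wnt1 tumors and the rest. The others were BRCA1fl/fl;p53+/-;MMTV-cre (n = 5, called BRCA1-/-;p53+/-), MMTV-c-Myc (n = 5, MMTV-Myc), C3(1)/SV40 T/t-antigens (n = 5, C3(1)-Tag), MMTV-Her2/neu (n = 5), MMTV-H-Ras (n = 5, MMTV-HRas), MMTV-PyMT (n = 9) and p53fl/fl;MMTV-cre transplants (n = 6, p53-/-). MMTV directs a transgene or Cre mainly to mammary epithelium and C3(1) is a prostatein promoter also active there, so the floxed alleles are deleted where Cre acts, while the p53+/- allele carries no flox mark in the labels. All tumors came from female mice, and each was hybridized once against spleen DNA of pooled mice, a reference that another field of the labels calls normal mammary gland. The labels name no strain or age and give no tumor purity.

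Wnt1 is a secreted ligand. Its receptors, Frizzled and Lrp5 or Lrp6, stop the Axin, Apc and Gsk3 complex from degrading beta-catenin, which then acts on Tcf and Lef target genes in the nucleus. Wnt1 was first found as a gene activated by insertion of the MMTV provirus in mouse mammary tumors, and the transgene drives the same ligand in the same tissue.

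Each value is a log2 ratio of the 2 dyes for 1 probe, centred on the autosomal median of its array, so that 0 is the level of the array's typical probe. Cy5 is the tumor's dye and Cy3 that of the spleen DNA in the labels, and all signed values here run against them, as Cy3 over Cy5. In 661 of 676 intervals of the authors' own table (at least 3 probes, mean of at least 0.2 in size), Cy3 over Cy5 of the same array had the sign the table gives, including 57 in MMTV-Wnt1 arrays. With the dyes as labelled, every gain below is a loss. Probe noise, from differences between neighbors, was an SD of 0.158 in the array labelled Wnt_4635 and 0.233 to 0.35 in the other 4 MMTV-Wnt1 arrays (0.158 to 0.475 over all 45). On its slide the array labelled Wnt_4635 was alone, Wnt_4675, Wnt_4676 and Wnt_4677 shared a slide with no other model, and Wnt_4679 shared a slide with PyMT_11567 and PyMT_11570. For 4 of the 5 tumors, model and slide therefore cannot be told apart. Over all 39214 probes measured on every array, Wnt_4679 had a Pearson's r of 0.756 with PyMT_11570 and 0.628 with PyMT_11567. In the other models, C3TAg_5RPT and H2N53 had an r of 0.960 over 2057 bins, and C3TAg_7RPT and H2N61 had an r of 0.928. Each of these pairs joins 2 models on different slides, and whether its arrays hold separate tumors was not tested.

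The probe named Wnt1 was raised in 4 of the 5 MMTV-Wnt1 tumors. This probe (chromosome 15, 98621829 to 98621888, mm8, the build of the files) read 1.50 in Wnt_4675, 1.35 in Wnt_4677, 1.33 in Wnt_4676 and 1.07 in Wnt_4679, the 4 highest of all 45 arrays. At 0.07 the array labelled Wnt_4635 had rank 28 of 45. The 40 other tumors ranged from -0.45 to 0.80 with a median of 0.16, so they overlapped with the array labelled Wnt_4635 alone. The means were 1.06 ± 0.573 (SD, n = 5) in MMTV-Wnt1 and 0.128 ± 0.283 (SD, n = 40) elsewhere, a difference of 0.93 with a 2-sided exact permutation p of 2.95e-05. Without the array labelled Wnt_4635 the MMTV-Wnt1 mean was 1.31 ± 0.179 (SD, n = 4).

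Among the other models the Wnt1 probe averaged 0.33 ± 0.193 (SD, n = 5) in MMTV-HRas, 0.30 ± 0.129 (n = 5) in BRCA1-/-;p53+/-, 0.15 ± 0.401 (n = 5) in MMTV-Myc and 0.11 ± 0.295 (n = 6) in p53-/-. It averaged 0.09 ± 0.275 (n = 5) in C3(1)-Tag, 0.02 ± 0.314 (n = 9) in MMTV-PyMT and -0.01 ± 0.202 (n = 5) in MMTV-Her2/neu. On the slide that held Wnt_4679, the PyMT tumors read -0.31 and -0.45. Over the 7 arrays of slides with an MMTV-Wnt1 array the difference was 1.44 (exact permutation p = 0.0476, the smallest that 5 against 2 allows). Only Wnt_4679 of the 5 shared a slide with those 2, so this is not a comparison within slides.

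In a fit across all 40666 autosomal probes (limma, MMTV-Wnt1 minus the mean of the other 7 model means, Benjamini-Hochberg adjusted), the Wnt1 probe differed by 0.92 with an SE of 0.15 and an adjusted p of 0.00398. Without the array labelled Wnt_4635 the difference was 1.17. That array was set aside for its low value at this same probe, so the larger difference is fixed by the choice and is no further test. With scan date as a random block the limma adjusted p was 0.0728, and without Wnt_4675 it was 0.0780, so the call rested on those choices.

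The nearest neighbors of the Wnt1 probe were not called. Wnt10b, another Wnt ligand gene with a probe at 98603370, read 0.32, 0.07, -0.31, 0.02 and 0.08 in the array labelled Wnt_4635, Wnt_4675, Wnt_4676, Wnt_4677 and Wnt_4679 (adjusted p = 0.591). On the other side, AK122363, 10.8 kb away, read between -0.21 and 0.27 in the 5 tumors (adjusted p = 0.878). Prkag1, a regulatory subunit of AMP-activated kinase 25.7 kb away, read between -0.05 and 0.51 (adjusted p = 0.730). The Wnt1 probe lay in no altered segment in any of the 5 tumors, since a segment here needs at least 5 probes.

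All 5 MMTV-Wnt1 tumors, with the array labelled Wnt_4635 among them, stood above the other 40 at Prm1, which codes for protamine 1, a protein that packs DNA in sperm. The first of its 3 probes (chromosome 16, 10709911 to 10709964) read 1.30 in the array labelled Wnt_4635, 1.46 in Wnt_4675, 1.34 in Wnt_4676, 1.51 in Wnt_4677 and 1.23 in Wnt_4679. The other 40 read from -2.90 to 0.61 with a median of -0.22, so the groups did not overlap. The fit gave a difference of 1.79 with an SE of 0.295 and an adjusted p of 0.00398 (0.0813 with scan date as a random block). The other 2 probes of the gene missed the threshold with all 45 arrays (differences of 1.32 and 1.39, adjusted p of 0.0611 and 0.0749). At both of these the measured values did not overlap either, with MMTV-Wnt1 tumors from 0.73 and 0.51 up and others up to 0.44 and 0.45. The first of these 2 is not among the probes measured on every array.

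Averaged over the 3 Prm1 probes, which share 1 locus and are not independent, the MMTV-Wnt1 tumors were at 1.19, 1.18, 1.02, 1.1 and 0.84, in the order above, a mean of 1.07 ± 0.145 (SD, n = 5). The other models averaged -0.43 ± 0.750 (SD, n = 40). Their spread was wide and downward: 7 of the 40 were below -1, in 4 models (BRCA1-/-;p53+/-, MMTV-Her2/neu, MMTV-PyMT and p53-/-), the lowest being H2N53 at -2.87, P53_8546 at -2.77 and Brca_14 at -2.14, and the highest was 0.37. PyMT_11567 and PyMT_11570, on the slide of Wnt_4679, were at -0.36 and -0.44. The nearest probe outside the gene, an unnamed one 1.23 kb away, differed by -0.22 (adjusted p = 0.480). Those of Tnp2 (transition protein 2) and Socs1 (a suppressor of cytokine signaling) on the other side differed by 0.06 and -0.09 (adjusted p = 0.865 and 0.809). Thus the array labelled Wnt_4635 had the Prm1 surplus of its group without the Wnt1 surplus. The model label of this array is in doubt at the Wnt1 probe, and the Prm1 values do not settle it. The Wnt1 difference, the count of called probes, the called bin and the altered share are therefore given with and without it.

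**Figure D1:**
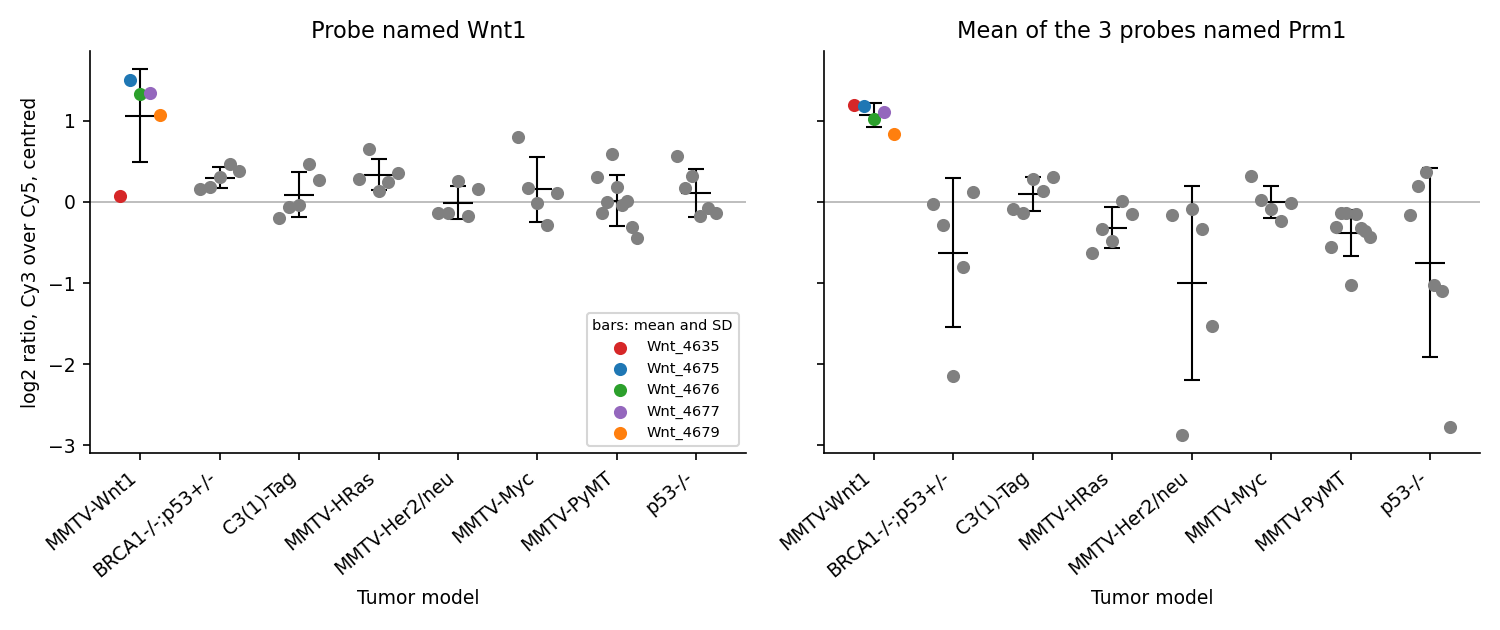
Log2 ratio (Cy3 over Cy5, centred) of the Wnt1 probe (left) and mean of the 3 Prm1 probes (right), 1 point per tumor by model, with the mean and SD of each model as black bars. At Wnt1 the array labelled Wnt_4635 (red) lies among the other models at 0.07 and the other 4 MMTV-Wnt1 tumors lie at 1.07 to 1.50, and at Prm1 all 5 lie at 0.84 to 1.19 above the other 40.

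Few other probes separated the groups. Of 40666 probes, 26 passed at an adjusted p under 0.05, which is 0.0639% of those tested: 18 were higher (0.0443%) and 8 lower (0.0197%) in MMTV-Wnt1. At an unadjusted p under 0.05 there were 5270. The 26 lay in 20 runs, where probes within 1 Mb count as 1 run. Of the 26, 8 had no gene name and 22 were also called without the array labelled Wnt_4635, a fit that called 160. A further count was that 13 of them were well above background in both channels on all 45 arrays. With slide as a random block 12 of the 26 passed: the 7 in a run at Skint genes on chromosome 4, Wnt1, Prm1, Pdk4, Nlrp9a and the unnamed probe of chromosome 6. With scan date as a random block 2 passed, that chromosome 6 probe and Skint4. Without Wnt_4675 only 3 probes passed, and with only the probes well above background everywhere 4 of 37095 passed.

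The array labelled Wnt_4635 was apart from the other 4 at several of these probes. The unnamed probe at chromosome 6, 136190028 to 136190087, read 3.04 in Wnt_4675, 3.56 in Wnt_4676 and 3.36 in Wnt_4677, which share a slide, against 0.97 in the array labelled Wnt_4635 and 0.88 in Wnt_4679. The other models reached 1.07 there, and the difference was 2.35 (SE 0.338, adjusted p = 6.5e-04). At Jmy, a p53 cofactor and actin nucleator on chromosome 13, the array labelled Wnt_4635 read 0.02 and the other 4 read 1.09, 0.63, 1.09 and 0.55, all above the highest other tumor (0.52). Its difference was 0.64 (adjusted p = 0.0353, and 0.224 with the slide block). Usp13, a deubiquitinase gene on chromosome 3, read 0.71, 1.01, 1.04, -0.07 and 0.72 in the usual order and up to 0.93 elsewhere, so that here Wnt_4677 was the low one (difference 0.81, adjusted p = 0.0334, and 0.179 with the slide block). Smaller positive differences, 0.41 to 0.65, were called at AK028643, AK030229, BC022593 and 3 unnamed probes of chromosomes 1 and 10.

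Among the 8 lower probes were Krtap16-3, Tom1l1, Ank, Pdk4, Mapkap1 and Nlrp9a. Krtap16-3, a keratin-associated protein gene, read 0.29 in the array labelled Wnt_4635, -1.79, -1.54 and -1.19 in the slide of 3, and -0.11 in Wnt_4679, against -0.78 to 1.34 elsewhere (difference -1.22, adjusted p = 0.0203). Ank, which codes for a pyrophosphate transporter, read 0.04, -0.46, -0.97, -1.45 and -0.36 (difference -0.87, adjusted p = 0.00901). Pdk4, a kinase that inhibits pyruvate dehydrogenase, read -0.15 to -0.92 in the 5 tumors with a median of 0.26 elsewhere (difference -0.69, adjusted p = 0.0203). Mapkap1, a subunit of mTOR complex 2, and Nlrp9a, of the NLR family, differed by -0.64 and -0.58 (adjusted p = 0.0292 and 0.0138). Tom1l1, an adaptor of vesicle sorting, differed by -2.20 (adjusted p = 0.0449, and 0.179 with the slide block), but its MMTV-Wnt1 values ran from -3.39 in Wnt_4679 to 0.35 in Wnt_4675, and the other models ran from -2.48 to 4.63. The 2 unnamed probes of chromosome 9 differed by -1.0 and -0.64.

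Only 3 of 39214 probes measured on every array had all 5 MMTV-Wnt1 tumors above all 40 others (0.00765%), and 0 had all 5 below. They were 2 Prm1 probes and AK051381 on chromosome 13, where the tumors read 0.07 to 0.45 and the highest other tumor read 0.05, a narrow gap. With the array labelled Wnt_4635 set aside, which was done for its Wnt1 value and so fixes the result at Wnt1 itself, 7 of 39214 probes (0.0179%) had all 4 above and 4 (0.0102%) all 4 below. Beside the 3 above, Wnt1, Jmy, Fut8 (the core fucosyltransferase) and Rtn4ip1 (a mitochondrial protein gene) had all 4 tumors above the other 40. Oxct1 (ketone body use), Ndufb9 (respiratory complex I), Mcf2l (a guanine nucleotide exchange factor) and 1 unnamed probe of chromosome 3 had all 4 below. At Fut8 the 4 tumors read 0.52, 0.80, 0.56 and 0.67, the highest other tumor 0.48 and the array labelled Wnt_4635 -0.07. At Oxct1 the 4 read -0.58, -0.68, -0.57 and -0.55, the lowest other tumor -0.41 and the array labelled Wnt_4635 -0.09.

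Of the 2057 autosomal bins of 1 Mb, 1 passed the threshold (0.0486%), and 133 had an unadjusted limma p under 0.05. It is the bin from 111000001 to 112000000 of chromosome 4, with a median over 18 probes of 1.82 in the array labelled Wnt_4635, 1.77 in Wnt_4675, 0.02 in Wnt_4676, 0.02 in Wnt_4677 and 1.14 in Wnt_4679. The other 40 tumors read from -0.30 to 0.65. The difference was 0.92 with an SE of 0.141 and an adjusted p of 8.62e-05, and it came from 3 of the 5 tumors, while the bin medians of the other 2 lay within the range of the other models. Without the array labelled Wnt_4635 the difference was 0.70 (limma adjusted p = 0.0148). Inside the bin Wnt_4676 had a called loss, from 111756513 to 111927421 (5 probes, mean -0.93, median -1.05). There 1 of the 40 other tumors was lower and 12 had mostly the same call. Over the run of 9 probes described next, Cy3 was well above background in Wnt_4676 at only 2 probes and Cy5 at 1. This loss is therefore not a measured level.

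The bin's signal came from a run of 9 probes over 385 kb (111570716 to 111955475), of which 7 were called singly. They carry the names of Skint4, Skint3 and Skint9, members of a family named for the selection and upkeep of intraepithelial T cells, and of AK162813. The median of the 9 probes was 4.05 in the array labelled Wnt_4635, 3.84 in Wnt_4675 and 4.33 in Wnt_4679, but -0.41 in Wnt_4676 and 0.02 in Wnt_4677. In the other 40 tumors it ran from -0.74 to 1.08. Both PyMT tumors on the slide of Wnt_4679 read 0.02, with each channel well above background at 1 of 9 probes, so that most of their run had no measured level. Outside the run the ratios were lower: the 2 probes of Skint2, beginning 362 kb from its centre, read between -0.12 and 0.70 in the 5 tumors, and those of Slc5a9, a sugar transporter gene to the other side, read between -0.38 and 0.13. A separate gained segment beyond the run, from 112125091, was called in the same 3 tumors. Its mean was 1.09 in Wnt_4679 (5 probes, all past 0.2), 0.51 in the array labelled Wnt_4635 (2 of 5 past 0.2) and 0.64 in Wnt_4675, where it reached 113700993 (4 of 8). It holds the Skint10 probe at 112266190, which read 1.63, 1.95 and 1.54 in the array labelled Wnt_4635, Wnt_4675 and Wnt_4679, and on the other side the probe of AK132639 at 111482045 read 1.15, 1.41 and 1.12. Neither probe passed the test (adjusted p = 0.284 and 0.543).

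These ratios are not measured levels, because the Cy5 channel was dark. Cy3 was well above background at 9 of 9 probes in all 3 raised tumors, while Cy5 was so at only 1, 1 and 2 of them. With Cy5 set to no less than the dimmest Cy5 signal that was well above background on the array, the median was at least 2.81 in the array labelled Wnt_4635, 2.23 in Wnt_4675 and 3.67 in Wnt_4679. In Wnt_4676 and Wnt_4677, Cy3 was well above background at 2 of 9 probes, and Cy5 at 1 and 0, so that most of the run had no measured level in either channel there. Over the 9 probes, from 9 to 30 of the 40 other arrays were well above background in Cy3 and from 12 to 31 in Cy5. With normexp background correction the bin differed by 0.38 (limma adjusted p = 0.139), and with only the probes well above background on all arrays by 0.13 (limma adjusted p = 0.984). The latter filter leaves out all 9 probes of the run, so its result was fixed by the filter and is no test of the run.

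**Figure D2:**
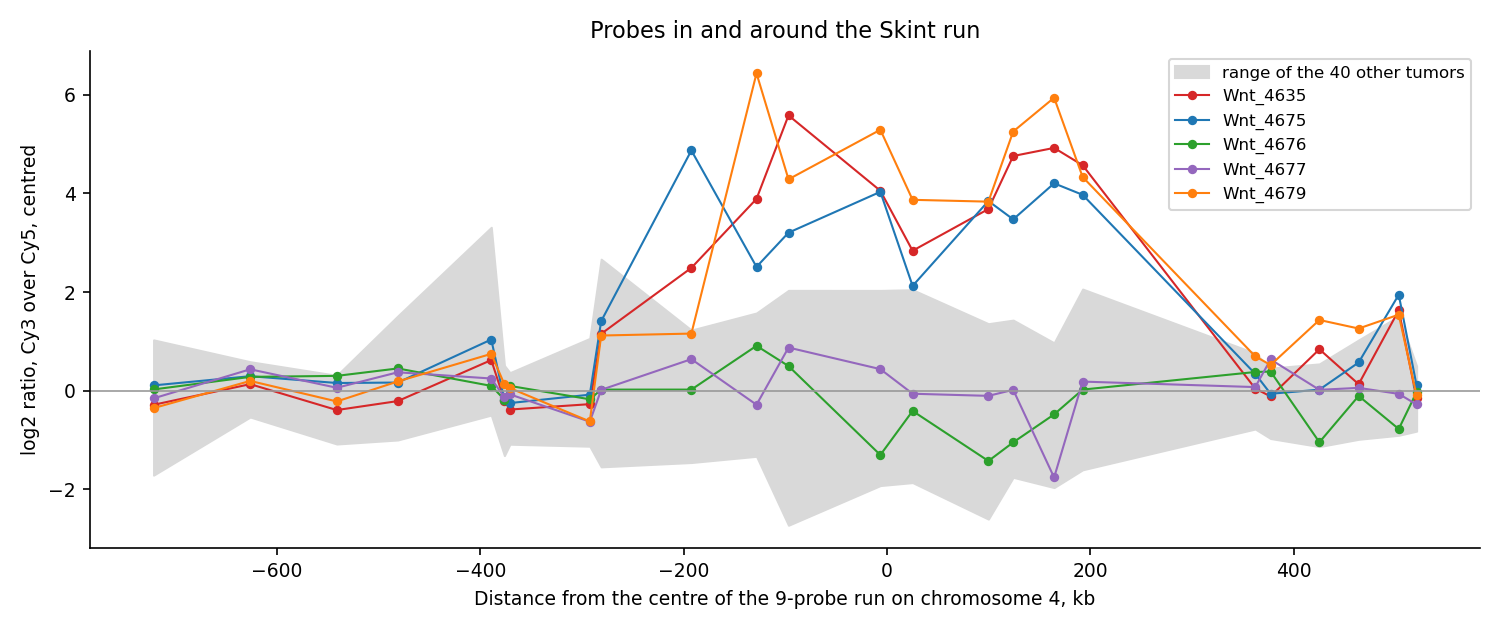
Log2 ratio (Cy3 over Cy5, centred) of each probe against its distance in kb from the centre of the 9-probe run on chromosome 4, with 1 line per MMTV-Wnt1 tumor and the range of the 40 other tumors in grey. Over the run 3 lines reach medians of 3.84 to 4.33 and the lines of Wnt_4676 and Wnt_4677 stay within or near the grey range.

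Large changes were few in 4 of the 5 tumors. The share of autosomal bins lying in gained or lost segments (segment mean of at least 0.2 in size) was 30.9% in the array labelled Wnt_4635, 0.486% in Wnt_4675, 4.23% in Wnt_4676, 0.0972% in Wnt_4677 and 1.36% in Wnt_4679. Gains made up 23.4% and losses 7.49% in the first, and losses reached no more than 0.729% in the other 4. The mean altered share was 7.42% ± 13.2 (SD, n = 5), and 1.54% ± 1.87 (SD, n = 4) without the array labelled Wnt_4635.

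The other 40 tumors averaged 25.9% ± 25 (SD) and ran from 0 to 84.0%. The difference of -18.5 percentage points had an exact 2-sided permutation p of 0.113. Gains alone differed by -8.82 points (exact p = 0.155) and losses alone by -9.70 (exact p = 0.135). Without the array labelled Wnt_4635 the difference was -24.4 points (exact p = 0.0468) for all changes and -13.2 (exact p = 0.0456) for gains, so the call turned on this 1 array. With the array kept in, it turned on the processing too: all changes passed with normexp background correction (exact p = 0.0489) and with calls at a segment mean of 0.3 (exact p = 0.0285), and gains with normexp (exact p = 0.0476). On the slides with an MMTV-Wnt1 array the sign turned, with 4.77 points more in the 5 than in the 2 PyMT tumors (exact p = 0.762), which read 0.0486% and 5.25%. This turn came from the array labelled Wnt_4635, since the other 4 differed from the same PyMT tumors by -1.11 points (exact p = 0.8). Only Wnt_4679 of the 5 shared a slide with these PyMT tumors.

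**Figure D3:**
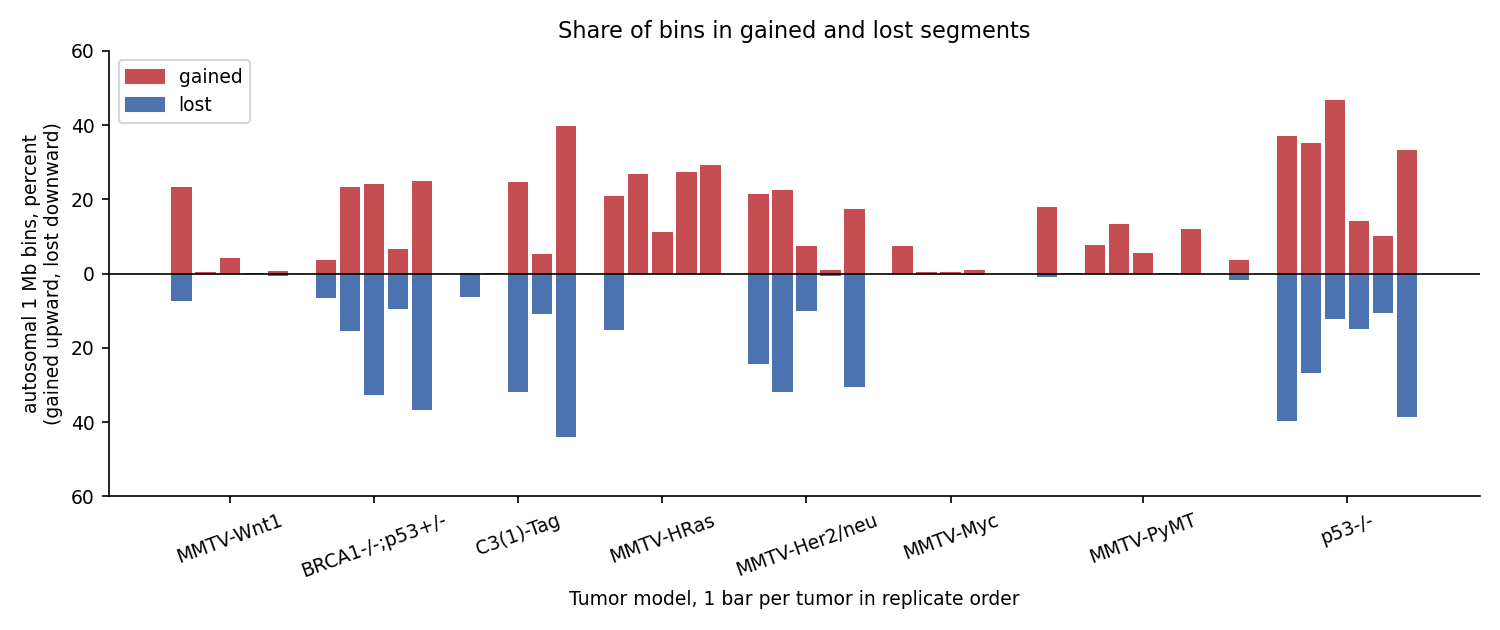
Share of autosomal 1 Mb bins in gained (red, upward) and lost (blue, downward) segments, in percent, with 1 bar per tumor grouped by model in replicate order. The first MMTV-Wnt1 bar is the array labelled Wnt_4635, with 23.4% gained and 7.49% lost, and the other 4 have altered shares of at most 4.23%.

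The other models were themselves of different kinds. Altered shares averaged 53.3% ± 23.1 (SD, n = 6) in p53-/-, 36.7% ± 23.1 (n = 5) in BRCA1-/-;p53+/-, 33.4% ± 22.8 (n = 5) in MMTV-Her2/neu, 32.6% ± 36.1 (n = 5) in C3(1)-Tag and 26.2% ± 9.03 (n = 5) in MMTV-HRas. They averaged only 7.01% ± 6.57 (n = 9) in MMTV-PyMT and 1.95% ± 3.11 (n = 5) in MMTV-Myc, the 2 models whose means lay nearest to that of MMTV-Wnt1. Of 7 exact permutation tests of MMTV-Wnt1 against each model, 0 passed after Benjamini-Hochberg adjustment. The lowest was against p53-/- (difference -45.9 points, exact p = 0.0130, adjusted 0.0909), followed by MMTV-HRas (-18.8, exact p = 0.0397), BRCA1-/-;p53+/- (-29.3, exact p = 0.0556) and MMTV-Her2/neu (-26.0, exact p = 0.0635), each 0.111 after adjustment. Against MMTV-PyMT and MMTV-Myc the differences were 0.41 (exact p = 0.945) and 5.46 points (exact p = 0.579).

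No autosome differed in mean between MMTV-Wnt1 and the rest. Of 19 exact permutation tests 0 passed, the lowest p being that of chromosome 6 (0.0550, adjusted 0.941). Chromosome 6 had a mean log2 ratio of -0.165 in the array labelled Wnt_4635, 0.0276 in Wnt_4675, 0.0304 in Wnt_4676, 0.0297 in Wnt_4677 and -0.00342 in Wnt_4679, and 0.190 ± 0.236 (SD, n = 40) in the other models. A chromosome is counted as gained or lost here when 10% or more of its probes were in segments called so. By that count chromosome 6 was gained in 0 of 5 MMTV-Wnt1 tumors and in 19 of 40 others (47.5%, exact Clopper-Pearson 95% confidence interval 31.5 to 63.9%). Chromosome 15, which holds Wnt1 and Myc, was gained in 0 of 5 and in 14 of 40 (35%, interval 20.6 to 51.7%), and chromosome 10 was lost in 0 of 5 and 16 of 40.

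Wnt_4675, Wnt_4677 and Wnt_4679 had no autosome gained or lost by that count. Wnt_4676 had 1, a gain of chromosome 17 over 99.9% of its probes with a mean of 0.286. Chromosome 17 was gained in 13 of the 40 other tumors (32.5%, interval 18.6 to 49.1%), of which 4 were MMTV-HRas and 3 were MMTV-Her2/neu. In the other 4 MMTV-Wnt1 tumors its mean lay between -0.0320 and 0.0350.

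The array labelled Wnt_4635 had 6 autosomes gained by that count, 3, 5, 8, 11, 12 and 19, and 1 lost, 7. Chromosomes 16, 2, 6 and 4 were also low in it, with means of -0.195, -0.168, -0.165 and -0.161. Most of their probes lay in segments just short of the cutoff of 0.2, so the count of 1 lost autosome depends on that cutoff. Chromosomes 3, 5, 8 and 19 were gained over at least 99.9% of their probes, with means of 0.318, 0.292, 0.280 and 0.269, and chromosome 7 was likewise lost throughout, with a mean of -0.220. Chromosome 11 was gained over 32.0% of its probes, most of them in the part from 97095358 on, and chromosome 12 over 24.7%. In the other 4 MMTV-Wnt1 tumors the means of chromosomes 3, 5, 8 and 19 lay between -0.0453 and 0.0151. Elsewhere, chromosome 3 was gained in 10 of 40 tumors, of which 5 were p53-/-, chromosome 5 in 9, chromosome 8 in 8 and chromosome 19 in 6, while chromosome 7 was lost in 12, of which 4 were MMTV-Her2/neu.

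**Figure D4:**
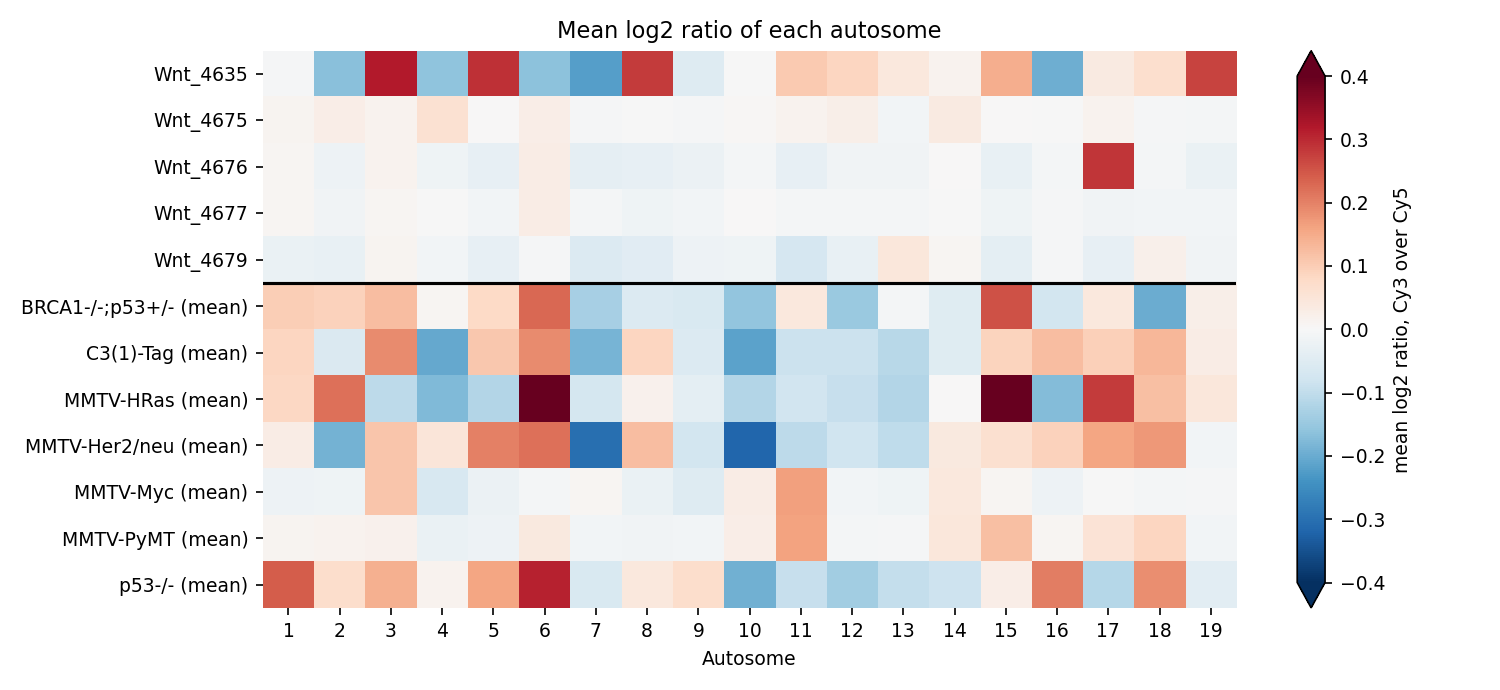
Mean log2 ratio (Cy3 over Cy5, color) of each of the 19 autosomes in the 5 MMTV-Wnt1 tumors (above the line) and averaged over the tumors of each other model (below it), with colors saturating at the ends of the scale. The array labelled Wnt_4635 shows gains of chromosomes 3, 5, 8 and 19, Wnt_4676 a gain of chromosome 17, and the other 3 tumors means near 0 throughout.

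The array labelled Wnt_4635 also carried narrow high gains, of which the largest by mean was on chromosome 9. The Skint run is left aside here because its Cy5 channel was dark. Its segment from 7158891 to 7565658 (23 probes) had a mean of 3.74, flanked by segments of 2.23 (6983399 to 7132145, in Dync2h1, a motor of cilia) and 2.58 (7654699 to 8121056) and, farther out, by steps of 1.66 and 2.11. The core holds a cluster of matrix metalloproteinase genes, which degrade the extracellular matrix: Mmp13 read 3.90, Mmp12 3.96, Mmp1b 3.78, Mmp3 3.54, Mmp1a 3.79, Mmp10 3.87 and Mmp8 3.89. The distal flank holds Mmp20 (2.46), Mmp7 (2.87), Birc3 (2.55), which codes for an inhibitor of apoptosis, and Yap1 (2.49), a transcriptional coactivator of the Hippo pathway. For each of these genes the array was the highest of the 45. In the other 4 MMTV-Wnt1 tumors Birc3 ran from -0.13 to 0.31 and Yap1 from -0.46 to 0.03, and the highest values in other models were 0.26 and 0.91. The core segment's probes averaged between -0.42 and 0.42 in the other models.

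A segment of chromosome 3 (26524049 to 27270695, 7 probes) with a mean of 3.14 was likewise the highest of the 45, the other models reaching 0.72. Beside transcripts known by accession it holds Spata16, a spermatogenesis gene, at 3.29. On chromosome 12 a step of 0.99 (31792384 to 32761872, 25 probes), with Lamb1 (a laminin chain) at 1.07 and Slc26a3 (an anion exchanger) at 1.22, stood in a gain of the proximal part. On chromosome 6 a segment from 16724617 to 18377549 (33 probes) had a mean of 1.90, and held the receptor tyrosine kinase gene Met (1.92), Cav1 of caveolae (2.14) and the ligand gene Wnt2 (1.78). There 5 tumors of other models were higher, up to 5.47, and Met ranked 6 of 45. The flank proximal to it, from 3274714 to 15034603, was called lost at -0.20, a call that 0 of the other 40 tumors shared over most of that stretch. The whole of chromosome 6 averaged -0.165 in this array, so the flank lay near that level and only just past the cutoff.

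Counting all segments past 0.2 in size, the array labelled Wnt_4635 had 63, Wnt_4675 53, Wnt_4676 7, Wnt_4677 11 and Wnt_4679 50. Most were short: 39, 52, 3, 11 and 47 of them held under 20 probes, and 20, 33, 1, 5 and 37 held just 5, the fewest allowed. In 28 of 39, 40 of 52, 3 of 3, 9 of 11 and 36 of 47 the median probe, and not just the mean, was past 0.2. Among the largest in Wnt_4675 after the Skint run were those at Ppp1r14d on chromosome 2 (mean 1.92, median 1.62), an unnamed probe of chromosome 2 (1.53, median 0.20) and AK044562 on chromosome 6 (1.34, median 0.77). The largest in Wnt_4677 besides chromosome 6 were a loss at AK161384 on chromosome 5 (-0.87, median -0.43) and gains at Efcab5 and AK139667 (0.77 each, medians 0.14 and 0.09).

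The short segments of Wnt_4679 were mostly those of its slide. Of its 47, 42 had a mean past 0.2 in the same direction in PyMT_11570 and 41 in PyMT_11567, against a median of 9 (range 3 to 20) in arrays of other slides. The segment at Cd200r4, an immune receptor gene on chromosome 16, had a mean of -2.26 in Wnt_4679, -2.22 in PyMT_11567 and -2.24 in PyMT_11570. One on chromosome 5 from 138629452 had means of 2.61, 3.01 and 2.71. Those at Arl15 and Sfmbt2 were at -1.79 and -1.72 in Wnt_4679. The Skint segment counts among those shared with both PyMT tumors by this rule, at 4.90 in Wnt_4679 and 0.37 and 0.47 in those 2. Over the run of 9 probes, each channel was well above background at only 1 probe in both PyMT tumors, and Cy5 at 2 in Wnt_4679. These means are therefore not measured levels, and neither the sharing nor the gap in size can be judged there. The segments past 0.2 in neither included one on chromosome 1 from 66726250, with means of 1.24 in Wnt_4679, -0.01 in PyMT_11567 and -0.07 in PyMT_11570. The study's text gives the reference as spleen DNA of the background strain, without saying whether that was 1 pool on all slides. The part of the reference in these segments, and in the altered share of Wnt_4679, was not tested. Of the 52 short segments of Wnt_4675, 16 had such a mean in Wnt_4676 and 13 in Wnt_4677, on its slide, while up to 33 had one in an array of another slide (P53_1573) and the median was 14. Of the 11 of Wnt_4677, 11 had one in Wnt_4676 and 9 in Wnt_4675, on its slide, against a median of 4 and at most 10 in arrays of other slides.

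**Figure D5:**
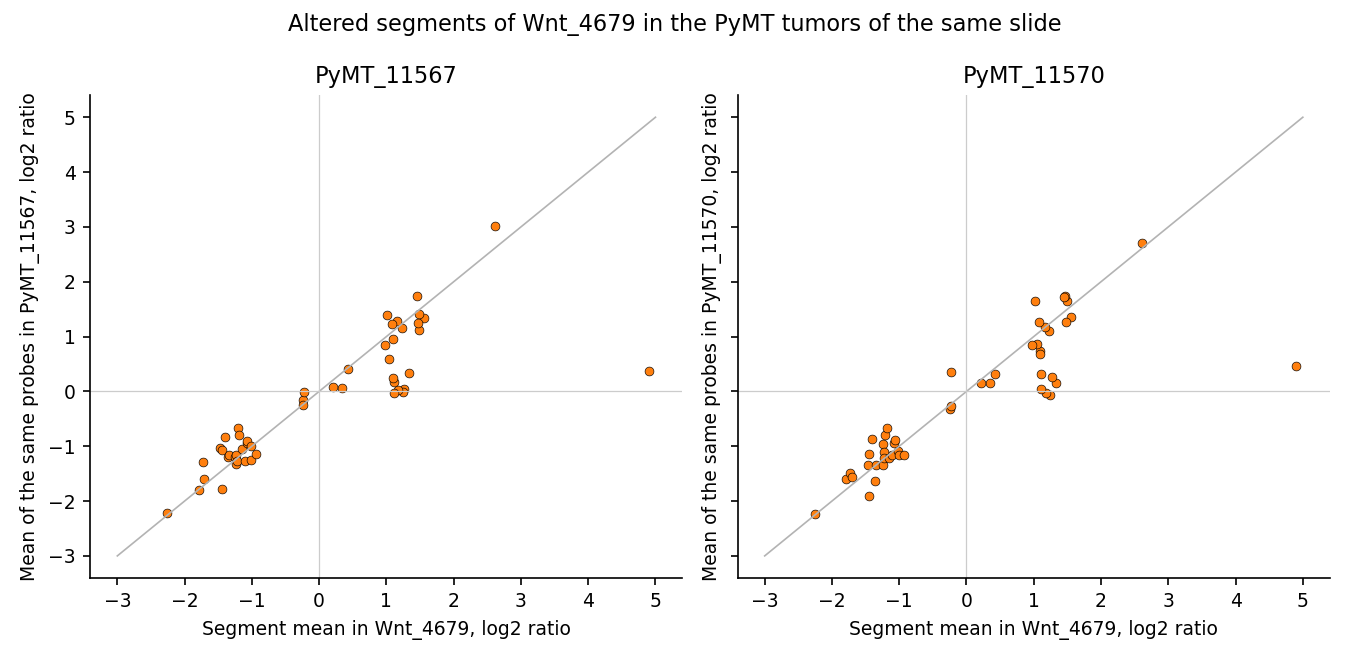
Mean log2 ratio of each altered segment of Wnt_4679 (horizontal) against the mean of the same probes in PyMT_11567 (left) and PyMT_11570 (right), which shared its slide, with the line of equal values. Most points lie along the line. The Skint segment lies far below it, at 4.90 against 0.37 and 0.47, but most of its probes were not well above background in both channels.

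Some short regions were called in 2 or 3 tumors of the slide of 3, and also in other models. On chromosome 6, from 130162373 to 131194012, 6 probes, among them those of Klra genes (natural killer cell receptors), averaged 1.20, 1.18 and 1.24 in Wnt_4675, Wnt_4676 and Wnt_4677, against -0.31 in the array labelled Wnt_4635 and 0.21 in Wnt_4679, and 18 of the 40 other tumors had the same call. From 141466388 to 142315423, over a cluster of Slco1 organic anion transporter genes, the 3 averaged 0.72, 0.70 and 0.79 and the other 2 -0.23 and -0.06, with 20 of 40 others gained. A loss on chromosome 9 over olfactory receptor genes (38214676 to 38448035, 14 probes) averaged -0.54 in Wnt_4675 and -0.50 in Wnt_4677, -0.27 in Wnt_4676, -0.14 in the array labelled Wnt_4635 and 0.06 in Wnt_4679, with 5 of 40 others lost. These regions were picked from the calls themselves and were not tested.

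Beyond Wnt1 the pathway's own genes gave no call. Of 72 listed genes of the canonical Wnt pathway, 64 had probes, and of their 120 probes 1 was higher (Wnt1) and 0 lower, against 0.0639% of all probes. The median difference over the 120 was -0.0017, as against -0.0023 over all probes. Of the genes where MMTV insertions are known, 12 of 13 had probes and Wnt1 gave the 1 call of 18 probes. Of 38 oncogenes and tumor suppressors, 34 had probes, and 0 of 73 were called, with a median difference of 0.00024. The lowest adjusted p in that list was 0.0611 at Birc3, which read 2.55 in the array labelled Wnt_4635, 0.31 in Wnt_4679 and -0.13 to -0.09 in the other 3.

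Listed genes inside altered segments were almost all in the array labelled Wnt_4635: 21 of the 64 Wnt pathway genes gained and 2 lost, where 24.3% of all its probes were gained and 8.80% lost. Among ligands it held gains of Wnt2 (1.78), Wnt3 (0.50) and Wnt2b (0.49), among receptors Lrp5 (0.60) and, lost, Fzd4 (-0.17), among nuclear factors Lef1 (0.43) and Tcf7l2 (0.27), and among feedback inhibitors Axin2 (0.33), Nkd1 (0.51), Notum (0.56) and Sfrp1 (0.24). Of the 34 oncogenes and suppressors 12 were gained, such as Erbb2 (0.51), Nras (0.33) and Fgfr1 (0.30), and 4 were lost, Hras1 (-0.33), Ccnd1 (-0.20), Ccne1 (-0.45) and Fgfr2 (-0.24).

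In Wnt_4676 the genes in altered segments were those of chromosome 17: Axin1, the scaffold of the complex that degrades beta-catenin (0.09), the receptor gene Notch4 (0.20), the cyclin gene Ccnd3 (0.38) and the cell cycle inhibitor gene Cdkn1a (0.43). Wnt_4675 had Frzb, a secreted Wnt inhibitor gene, in a gained segment (its 3 probes averaged -0.05), Wnt_4679 had Wnt2 (-0.29) and Met (-0.13) in a shallow gain of chromosome 6, and Wnt_4677 had none. In Wnt_4679 a gained segment of 5 probes on chromosome 19 (44373408 to 44549331, mean 1.01, median 0.31) also held 1 of the 2 probes of Wnt8b, a Wnt ligand gene, at 5.55. The same 5 probes averaged 1.39 in PyMT_11567 and 1.65 in PyMT_11570, on its slide. Over both probes Wnt8b read 2.28 in Wnt_4679, -0.17 to 0.29 in the other 4 and up to 3.12 elsewhere, a difference of 0.69 (lowest adjusted p = 0.411). Fgf3, a growth factor gene activated by MMTV insertions, lay in the lost chromosome 7 of the array labelled Wnt_4635 and read between -0.59 and 0.14 in the 5 tumors (adjusted p = 0.614). Myc read 0.36, -0.01, -0.15, -0.20 and -0.34, against up to 5.80 elsewhere.

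Of the probes of genes that name the other models, 1 in Brca1 showed the deletion of its model. This Brca1 probe at chromosome 11, 101340828 to 101340887, was between -5.14 and -1.69 in BRCA1-/-;p53+/- tumors and at 0.67 in the array labelled Wnt_4635, which is gained for distal chromosome 11. The Trp53 probes read 0.08 and 0.05 in that array, but the p53-/- tumors themselves read from -0.64 to 0.58 there, so these probes do not show the deletion. Neither the Erbb2 nor the Myc probes mark their transgenes (-0.30 to 0.47 in MMTV-Her2/neu tumors, -0.52 to 1.00 in MMTV-Myc). The Hras1 probe does not mark its transgene either, at -0.17 to 0.09 in MMTV-HRas tumors, -0.33 in the array labelled Wnt_4635 and up to 2.76 elsewhere.

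Over the 2057 bins, whose points share array noise and reference, the array labelled Wnt_4635 had Pearson's r of 0.03 to 0.10 with the other 4 MMTV-Wnt1 tumors, and its most like array was Brca_54 (0.28). Wnt_4677 had an r of 0.41 with Wnt_4675 and 0.40 with Wnt_4676, and Wnt_4675 and Wnt_4676 had 0.25. Wnt_4679 had -0.02 to 0.10 with the 4 others, and 0.69 and 0.51 with PyMT_11570 and PyMT_11567. The median was 0.194 over 44 pairs on a shared slide and 0.0769 over 946 pairs on different slides. All 3 pairs of MMTV-Wnt1 tumors on a shared slide lay between 0.25 and 0.41, and the 7 pairs on different slides between -0.02 and 0.10. Values as high were also found with other models on other slides: Wnt_4676 had 0.39 with H2N64 and 0.35 with PyMt3, and Wnt_4679 had 0.43 with H2N64.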

How the data were processed

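DNA from 45 mammary tumors (1 array each; 5 MMTV-Wnt1 and 40 of 7 other models) was hybridized on a 2-color Agilent CGH array. The deposited scanner files hold, per spot, the intensity of both dyes and a log10 ratio of Cy5 over Cy3, which Agilent Feature Extraction (9.5.1.1 per the file headers, 10.7 per the labels) had background-subtracted and dye-normalized. The authors also deposited intervals with a mean log2 ratio per tumor, called by an aberration detection method and used here only for the direction and as an alternative. Their build is mm8. DNA came from tumor or spleen by a column kit.

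Control and outlier spots were left out, the sign was turned, ratios were changed to log2 and each array was centred on its autosomal median (40666 probes). Recursive circular binary segmentation set each inner stretch against the rest (split statistic over 6, at least 5 probes). Calls at a segment mean of 0.2 in size gave altered segments, and 1 Mb bins with at least 3 probes numbered 2057. limma 3.58.1 (R 4.3.3) compared MMTV-Wnt1 with the mean of the 7 other model means over all 45 arrays, with Benjamini-Hochberg adjustment at 0.05. Single values were compared by 2-sided exact permutation over 1221759 assignments (Python 3.11.15, NumPy 2.4.6, SciPy 1.17.1). Segmentation and tests were checked on simulated data.

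The precision is limited by the number of arrays. Replicates are labelled as separate tumors, but the labels do not tie tumors to mice, so p-values measure the spread between these samples. C3TAg_5RPT with H2N53 and C3TAg_7RPT with H2N61 were nearly identical though labelled as different models, which puts their independence in doubt. The main tests count all 4 as separate. Without those 4 arrays the limma difference was 0.94 at the Wnt1 probe and 0.93 at the chromosome 4 bin. Named genes are those of 3 fixed lists (canonical Wnt pathway, MMTV insertion genes, oncogenes and suppressors), the called probes (up to 15 highest and 15 lowest), the leading gene of the called bin, and of up to 5 segments per tumor the gene of the most extreme probe. Genes of shared regions, of narrow gains and of probes with no overlap were added after their values were seen. Members, lists and tests were chosen with earlier results of these data known. Of 20093 gene names, 11649 were current symbols and 2779 older ones matched 1 symbol in RefSeq (GRCm38.p6, names only). Exon and intron annotation of mm8 was not used here. Alternatives changed the background correction, centring, intensity lowess, filters, thresholds, bins, blocks, weights and arrays used. Some listed genes and segments are not reported here.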

Additional observations from a re-analysis of the deposited data

Results flagged for a closer look

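Of 31 sets of 5 to 9 values tested for 1 value far from the rest, 14 were marked, where chance marks about 1 in 20. The array labelled Wnt_4635 was the outlying one in 12. Among the 5 MMTV-Wnt1 tumors it had the highest altered share (30.9%), gained share (23.4%) and lost share (7.49%) of bins. It had the highest mean log2 ratio of chromosomes 3 (0.318), 5 (0.292), 8 (0.280), 15 (0.145) and 19 (0.269), and the lowest of chromosomes 2 (-0.168), 6 (-0.165), 7 (-0.220) and 16 (-0.195). These values come from 1 array and are not independent of each other.

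Wnt_4676 stood apart for its mean of chromosome 17 (0.286). In another model, Myc_04004021 stood apart from the other 4 MMTV-Myc tumors with an altered share of 7.44%.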

How the results depend on the processing

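The altered share differed by -21.4 points with normexp (exact p = 0.0489) and -15.9 with calls at a segment mean of 0.3 (exact p = 0.0285), and gains by -13.5 with normexp (exact p = 0.0476), all past the threshold. On slides with an MMTV-Wnt1 array the signs turned (altered 4.77, gained 3.98, lost 0.79 points), and turned back once the array labelled Wnt_4635 was left out too, chosen after seeing the data (-1.11, -0.44 and -0.67). With each array left out, altered ran from -24.4 to -16.7, gained from -13.2 to -7.41 and lost from -11.2 to -8.86. Models past the threshold numbered 2 with normexp and with calls at 0.3. With each array left out, models past the threshold and chromosomes past the threshold both stayed at 0 to 0.

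The Wnt1 probe differed by 0.82 to 1.18 with each array left out (0.81 to 1.17 in the fit), and by -0.93 with dyes as labelled (-0.92 in the fit). The chromosome 4 bin differed by -0.92 with dyes as labelled, 0.59 with array weights (limma adjusted p = 0.00769) and 0.93 on the slides with an MMTV-Wnt1 array (limma adjusted p = 0.306, no longer a call), against 0.92. Called bins numbered 0 with normexp, with bright probes only, with 2 Mb bins and on the slides with an MMTV-Wnt1 array (391 unadjusted limma calls in the last), 280 with array weights (155 higher), and 1 to 1 with each array left out. The setting with bright probes only drops the whole Skint run.

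Called probes numbered 3 with normexp (1 of the 26), 4 with bright probes, 12 without the 2 nearly identical pairs, 14 with the 40 others as 1 group, 12 with slide and 2 with scan date as a random block, 6474 on the slides with an MMTV-Wnt1 array (4 of the 26) and 9199 with array weights (25 of the 26). With each array left out they ran from 3 (Wnt_4675) to 160 (the array labelled Wnt_4635). Counts over 1.5 times away also came without BRCA1-/-;p53+/- replicate 5 (47), MMTV-Her2/neu replicate 4 (125), MMTV-HRas replicate 1 (68), p53-/- replicate 5 (49), MMTV-PyMT replicates 1 (47), 2 (45) and 9 (41), Wnt_4676 (13), Wnt_4677 (12) and Wnt_4679 (16). The cause of these moves was not tested. Apart from the changes given here and beside the results, the alternatives kept direction and call. No paired analysis was possible because replicate numbers are only names given in accession order. At 96.6 to 99.8% of probes both channels were well above background, and where they were not, as in the Skint run, a ratio is not a measured level.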
